A study of Mus musculus with 8 samples.

Results

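Iron-sulphur clusters are small inorganic cofactors that cells build step by step with dedicated proteins. In mitochondria a cysteine desulphurase supplies sulphur to a scaffold protein, ferredoxins supply electrons, and a chaperone pair passes the new cluster on to carriers and late-acting factors. A product of this route leaves the mitochondrion and feeds a cytosolic system, which assembles clusters and inserts them into cytosolic and nuclear enzymes, among them DNA polymerases and helicases that dividing T cells use. The 31 genes described here are those of a list of this machinery, chosen with earlier results of these data known. All 31 were found by symbol among the 13751 genes of the deposited normalised table, and all 31 were among the 13378 genes with enough counts to test. By the assembly step they serve, 16 were listed as mitochondrial and 11 as cytosolic. The other 4 are Gfer of the intermembrane space and the 3 Cisd genes, which were grouped apart wherever their proteins sit.

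Sorted naive CD4 T cells from the peripheral lymph nodes of wild-type C57BL/6 mice were activated in culture, and their RNA was sequenced. The 4 FAC libraries came from cells activated for 20 h with iron supplementation, on plates coated with anti-CD3 and anti-CD28 at 4 µg/mL, which the labels call FAC at a dose they do not give. The 4 control libraries came from cells activated in the same way without added iron, and both groups shared a medium with serum. Each mouse number names 1 FAC and 1 control culture. The labels do not say whether a number stands for 1 animal or a pool, and they give neither age nor sex.

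Library totals ran from 25410299 to 32368404 estimated counts with FAC and from 25478740 to 37350654 in controls. Summed markers of T cells lay at 2150 to 2209 counts scaled to library size (CPM) with FAC and at 2150 to 2235 CPM in controls. Summed B cell markers reached 0.379 and 0.357 CPM in the highest FAC and control library, and summed myeloid markers 0.522 and 0.528 CPM. Lyz2 was at 0 counts in all 8 libraries. Summed NK cell markers reached 1.56 and 1.99 CPM. Summed CD8 T cell markers lay at 6.26 to 8.99 CPM with FAC and at 7.99 to 10.9 CPM in controls. Of these, Cd8b1 had 157 to 396 counts in a library and Cd8a at most 11. Summed stroma and erythroid markers lay at 8.16 to 10.6 and 7.18 to 11.2 CPM, where Pecam1 had 202 to 327 counts in a library. Tfrc, the transferrin receptor gene, an RNA that cells with enough iron break down, served as a check of the iron supplement. It had 212, 197, 195 and 191 units of abundance scaled for transcript length and library size (TPM) in FAC mice 1 to 4, against 338, 295, 340 and 324 TPM in control mice 1 to 4 (log2 change -0.79, SE 0.04, edgeR adjusted p = 3.97e-07). Every FAC library lay below every control library. The ferritin genes Fth1 and Ftl1 were also set as checks. Fth1 had a change of 0.07 and did not pass (edgeR adjusted p = 0.525), and its groups overlapped. Ftl1 had a change of 0.19 (edgeR adjusted p = 0.0449) and was called in 2 of the 8 fits that left out 1 library.

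With FAC, transcripts of the assembly machinery stayed close to their control levels. Of the 31 genes, 1 rose and 0 fell at an edgeR adjusted p under 0.05, where 3.27% of all 13378 tested genes were called, 2.18% higher and 1.1% lower. The count depended on the method. By limma-voom it was also 1 higher and 0 lower. By DESeq2 and with the mouse as a replicate block it was 2 higher and 0 lower, where these called 5.96% and 6.87% of all tested genes. It was 0 on log2(TPM + 1), on the deposited normalised signal and with estimated transcript length as an offset. Without 1 library it ran from 0 to 2. The gene called by edgeR was Mms19, of the cytosolic targeting complex, higher by 0.23 on the log2 scale at an adjusted p of 0.0499. Ndor1, of the cytosolic electron transfer chain, had a change of the same size with an adjusted p of 0.0560. At an unadjusted p under 0.05 there were 7 of the 31, where 18.4% of all tested genes had one. In bulk RNA, fewer cells of a type and less RNA per cell cannot be told apart.

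The intervals of the changes were narrow. For 29 of the 31 genes the 95% interval of the log2 change lay within 0.33 either side of 0, and for 21 within 0.25. The 2 others were Mms19 and Ndor1. The changes ran from -0.14 to 0.23, and 23 of the 31 were below 0, where 50.4% of all tested genes were. The median change was -0.05 over the 31 genes, against -0.0014 over all tested genes. It was -0.05 for the 16 mitochondrial genes and -0.04 for the 11 cytosolic genes, and -0.07 for the 9 cytosolic genes other than Mms19 and Ndor1. Within mice 1 to 4, the mitochondrial median was -0.07, -0.11, -0.06 and 0.01 and the cytosolic median -0.06, -0.09, -0.06 and 0.02. The medians of the mitochondrial and the cytosolic steps thus lay within 0.02 of each other in each mouse, and both were above 0 in mouse 4.

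**Figure D1:**
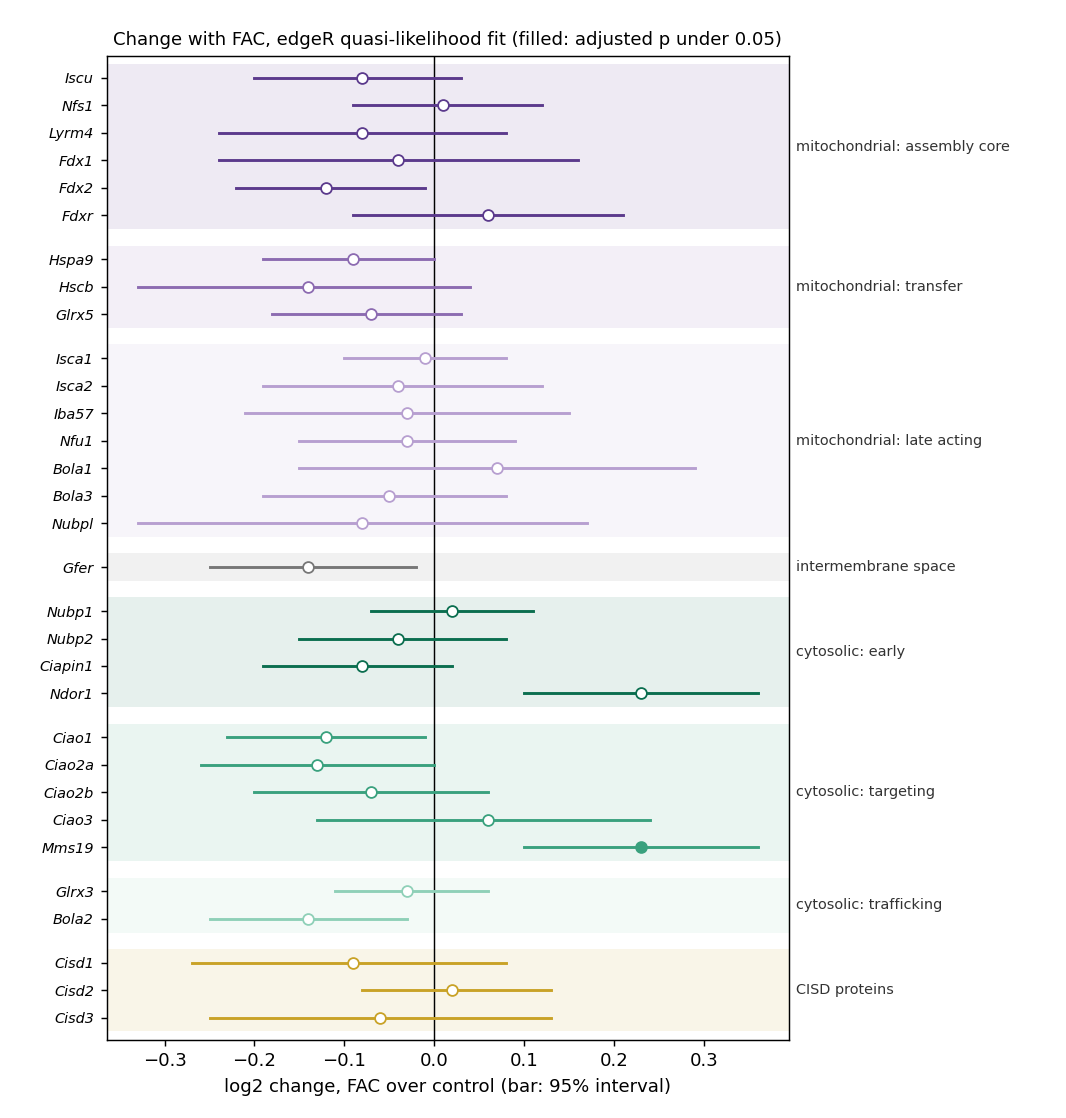
Log2 change of each of the 31 genes, FAC over control (x axis), with its 95% interval (bar) and genes grouped by role down the page. Filled circles mark an edgeR adjusted p under 0.05, which Mms19 alone has; the other 30 circles are open.

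Levels differed far more between the genes than between the groups. On the TPM scale, which accounts for transcript length, 26 of the 31 genes averaged at least 20 TPM over the 8 libraries and 5 at least 100 TPM. The most abundant was Hspa9, the mitochondrial chaperone also known as mortalin, at 614, 559, 548 and 577 TPM in FAC mice 1 to 4 and 630, 581, 589 and 579 TPM in control mice 1 to 4. The groups overlapped. The least abundant was Nubpl, which delivers clusters to respiratory complex I, at 4.55, 3.73, 4.64 and 5.21 TPM with FAC and 5.43, 4.58, 5.35 and 3.89 TPM in controls. Its FAC libraries also overlapped the control libraries, and the means of Hspa9 and Nubpl differed 125-fold. After Hspa9 came Bola2 (238 TPM), Glrx3 (209 TPM), Bola3 (133 TPM) and then Nubp2, as means over all libraries. At the low end Ciao3 (11.9 TPM), Lyrm4 (11.7 TPM) and Iba57 (5.59 TPM) stood above Nubpl.

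**Figure D2:**
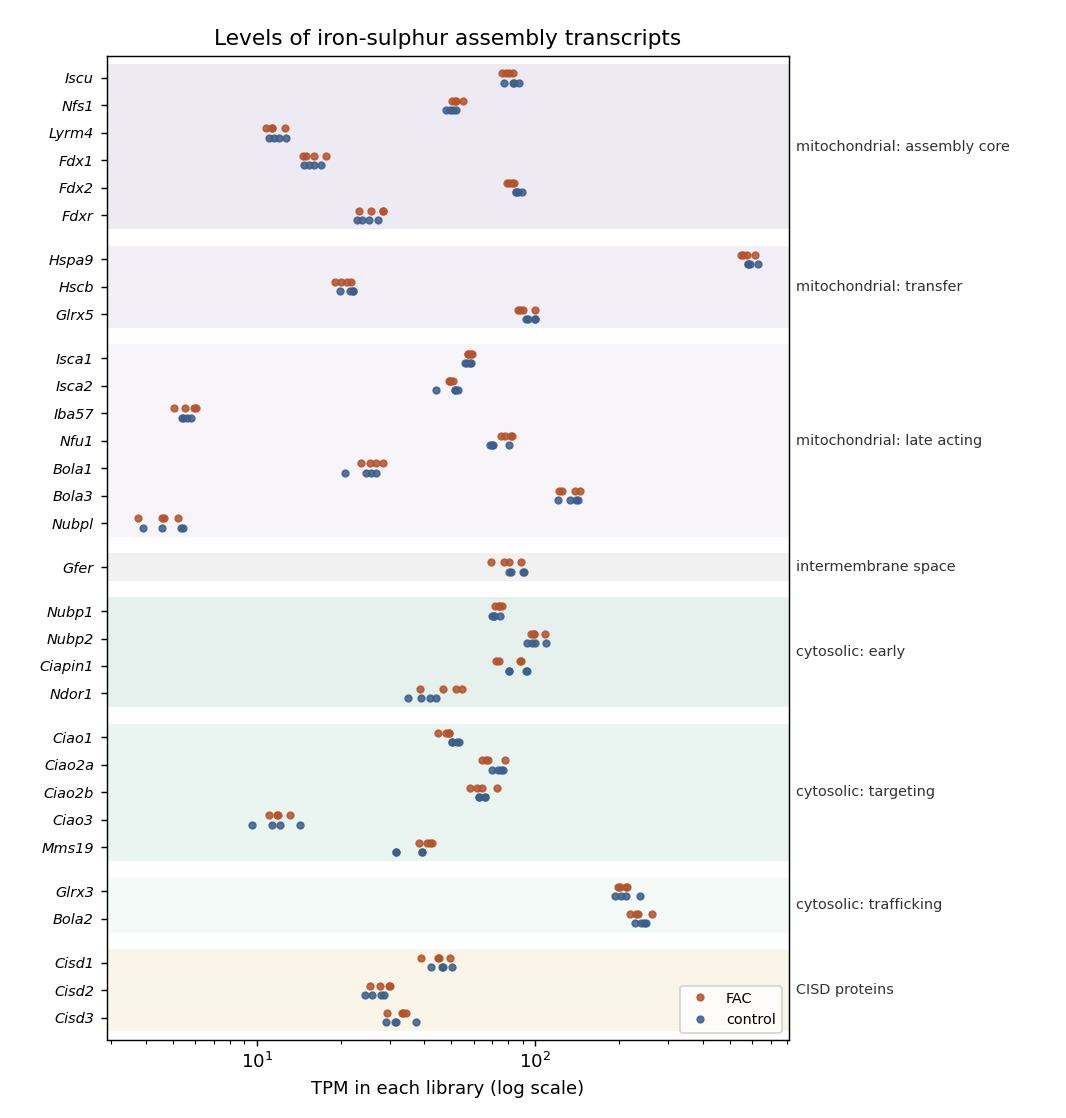
TPM of the 31 genes in each library on a log scale (x axis), FAC above control within each gene, grouped by role. FAC and control points of a gene overlap, except for Fdx2 and Ciao1, whose FAC points all lie below the control points.

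The mitochondrial route opens with Nfs1, the cysteine desulphurase, held stable by Lyrm4, and with Iscu, the scaffold on which the cluster forms. Nfs1 had 50.2, 51.5, 52.0 and 55 TPM in FAC mice 1 to 4, against 50.5, 49.6, 47.8 and 51.9 TPM in control mice 1 to 4. Its groups overlapped (log2 change 0.01, 95% interval -0.09 to 0.12, edgeR adjusted p = 0.916). Iscu had 76.0, 80.7, 78.2 and 83.0 TPM with FAC, against 77.1, 87.1, 83.5 and 83.8 TPM in controls. It was below its control in each mouse, yet the groups overlapped (-0.08, 95% interval -0.20 to 0.03, edgeR adjusted p = 0.437). Lyrm4 had a change of -0.08 (edgeR adjusted p = 0.632). The level of Iscu was 1.52 ± 0.0295 times that of Nfs1 with FAC and 1.66 ± 0.11 times in controls (SD, n = 4 each, TPM). Nfs1 had estimated counts that were not whole in all 8 libraries. In the GENCODE M21 annotation of an earlier build it overlaps Gm28036 on the same strand. Gm28036 had a mean of 1924 counts, and Nfs1 had 1617 to 2424 counts in a library. The part of the division of reads between them in the level of Nfs1 and in this ratio was not tested.

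Electrons reach the scaffold from the ferredoxin reductase Fdxr through a ferredoxin. Fdx2, the ferredoxin of cluster assembly, was the more abundant ferredoxin transcript, at 5.18 ± 0.506 times the TPM of Fdx1 with FAC and 5.50 ± 0.406 times in controls. Fdx2, given in full because its groups did not overlap and so chosen after its values were seen, had 79.3, 82.7, 83.8 and 80.2 TPM in FAC mice 1 to 4 and 85.1, 89.6, 85.5 and 86.7 TPM in control mice 1 to 4. Each FAC library lay below each control library, yet the change of -0.12 did not pass (95% interval -0.22 to -0.01, edgeR adjusted p = 0.222). Fdx2 had estimated counts that were not whole in all 8 libraries. In the GENCODE M21 annotation of an earlier build it overlaps Gm38431 and Gm49373 on the same strand, with mean counts of 397 and 108. Their changes were 0.25 and 0.4 (edgeR adjusted p = 0.31 and 0.222). The part of the division of reads among these genes in the level of Fdx2, in its ratio to Fdx1 and in its change was not tested. Of the 31 genes, Fdx2 and Ndor1 had groups whose CPM ranges did not overlap, 1 lower and 1 higher with FAC, where 11.1% of all tested genes did, 4.89% lower and 6.17% higher. Fdx1 (-0.04) and Fdxr (0.06) did not pass either (edgeR adjusted p = 0.876 and 0.701).

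In the transfer step Hscb recruits Hspa9 to the loaded scaffold, and the monothiol glutaredoxin Glrx5 receives the cluster. None of the 3 passed the edgeR test, 0 had an unadjusted p under 0.05, and DESeq2 also called 0. Hscb had a change of -0.14, Hspa9 -0.09 and Glrx5 -0.07, with edgeR adjusted p of 0.409, 0.283 and 0.473. Each was lower with FAC in 4 of 4 mice, as were 15.4% of all tested genes and 7 of the 31 members. The other 4 of these 7 were Iscu, Fdx2, Gfer and Ciao1. In mouse 4 the cultures hardly differed for Hspa9, at 1141 CPM with FAC and 1145 CPM in the control. The same held for Iscu, at 49.8 CPM with FAC and 49.8 CPM in the control.

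The late-acting mitochondrial factors turn the first cluster into larger ones and place them on target enzymes. Isca1, Isca2 and Iba57 form the larger clusters, Nfu1, Bola3 and Nubpl help to deliver them, and Bola1 binds Glrx5. All 7 changes lay between -0.08 and 0.07, edgeR called 0 of them, 0 had an unadjusted p under 0.05, and DESeq2 called 0. Bola1 had the highest change (0.07, 95% interval -0.15 to 0.29). Nfu1, singled out after its values were seen, had a change of -0.03 in counts but of 0.13 in log2(TPM + 1), and neither passed (edgeR adjusted p = 0.809, limma adjusted p = 0.300). Its effective length, the mean transcript length that the expression estimate assigned to the gene, was 516, 527, 526 and 523 bases in FAC mice 1 to 4, against 601, 598, 587 and 507 bases in control mice 1 to 4. Control 4 thus lay with the FAC libraries and not with the other controls.

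Gfer, a sulphydryl oxidase of the intermembrane space that has been linked to cluster export, had a change of -0.14 and was lower in 4 of 4 mice (95% interval -0.25 to -0.02), and did not pass (edgeR adjusted p = 0.190). The CISD proteins carry a cluster of their own. Cisd1 sits in the outer mitochondrial membrane, Cisd2 in the endoplasmic reticulum and Cisd3 in the matrix. Their changes were -0.09, 0.02 and -0.06, with edgeR adjusted p of 0.576, 0.836 and 0.780. Mouse 2 had the lowest within-mouse change of Cisd1 (-0.44) and of Cisd3 (-0.37), where the other 3 mice ranged from -0.07 to 0.09 for Cisd1 and from 0.02 to 0.08 for Cisd3.

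In the cytosol, Nubp1 and Nubp2 form the scaffold, and Ndor1 passes electrons to Ciapin1 for assembly. Nubp1 (0.02), Nubp2 (-0.04) and Ciapin1 (-0.08) did not pass (edgeR adjusted p = 0.839, 0.783 and 0.382). Ndor1 had 77.1, 81.6, 86.8 and 70.2 CPM in FAC mice 1 to 4, against 66.2, 64.3, 69.5 and 69.2 CPM in control mice 1 to 4. All 4 FAC libraries lay above all 4 control libraries, FAC 4 by the least. The log2 change was 0.23 (SE 0.06, 95% interval 0.10 to 0.36, edgeR adjusted p = 0.0560). With the mouse as a replicate block the adjusted p was 0.0214, and with DESeq2 it was 0.00961. By either of these, 2 of the 31 genes, Mms19 and Ndor1, rose and 0 fell, where the block called 6.87% of all genes (4.07% higher, 2.8% lower) and DESeq2 5.96% (3.73% higher, 2.23% lower). On the TPM scale, where the estimated transcript length enters, Ndor1 had 46.8, 52.1, 54.5 and 38.5 TPM with FAC, against 43.9, 35.0, 38.9 and 41.7 TPM in controls. There the groups overlapped, and the change of 0.25 in log2(TPM + 1) did not pass (limma adjusted p = 0.296). Without FAC 4 the edgeR adjusted p was 0.0103, and without any 1 other library it reached at most 0.193.

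The Ndor1 locus is counted under 3 overlapping gene identifiers, all given the symbol Ndor1 in the deposited table, and reads were divided among them by estimation. The identifier used above held 90.6% to 98.5% of the summed CPM with FAC and 89.1% to 93.7% in controls. The next one, ENSMUSG00000115018, had 138, 91, 39 and 142 estimated counts in FAC mice 1 to 4 and 195, 289, 119 and 125 in control mice 1 to 4, which is the opposite direction in mice 1 to 3 (log2 change -0.77, edgeR adjusted p = 0.245). The third had up to 44 counts in a library. Summed over the 3 identifiers, Ndor1 had 82.3, 84.4, 88.1 and 77.5 CPM with FAC, against 73.9, 72.2, 74.2 and 74.6 CPM in controls. The groups again did not overlap, and the log2 change was 0.17 (SE 0.05, edgeR adjusted p = 0.0586).

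The cytosolic targeting complex, made of Ciao1, Ciao2b and Mms19, hands clusters to enzymes of DNA synthesis and repair. Ciao3 brings clusters to this complex, and Ciao2a serves iron regulatory protein 1, the product of Aco1. Mms19 had 72.9, 77.0, 79.9 and 67.0 CPM in FAC mice 1 to 4, against 67.6, 59.7, 62.3 and 63.7 CPM in control mice 1 to 4. Mms19 was higher with FAC in each mouse, but FAC 4 lay below control 1, so the groups overlapped. The log2 change was 0.23 (SE 0.06, 95% interval 0.10 to 0.36, edgeR adjusted p = 0.0499, and 0.0256 with the replicate block). The call ended without any 1 library except FAC 4, with adjusted p of 0.0574 to 0.177 in those 7 fits, and the log2 change ran from 0.19 to 0.28 over all 8. It also ended on log2(TPM + 1) (0.21, limma adjusted p = 0.270), on the deposited signal (0.17, limma adjusted p = 0.323) and with effective length as an offset (0.17, edgeR adjusted p = 0.315). The other genes of the targeting step had changes of -0.12 for Ciao1, -0.07 for Ciao2b, -0.13 for Ciao2a and 0.06 for Ciao3 (edgeR adjusted p = 0.244, 0.585, 0.265 and 0.776). The differences between Mms19 and these genes were not tested.

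**Figure D3:**
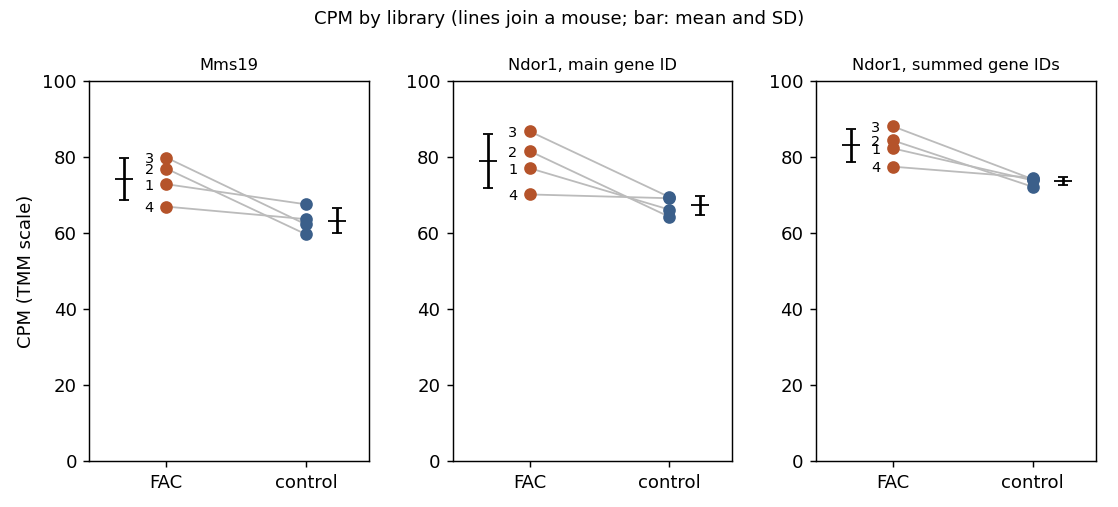
CPM of Mms19, of the main Ndor1 identifier and of Ndor1 summed over its 3 identifiers in each library, FAC left of control, with grey lines joining the libraries of a mouse and black bars for mean and SD. Numbers beside the FAC points are mouse numbers; for both genes FAC 4 is the lowest FAC library, at 67.0 CPM for Mms19 and 70.2 CPM for Ndor1.

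The promoters of these 2 genes are shown because they are the members with the largest changes. They are RefSeq windows of 250 bases before to 50 after a transcript start on build GRCm38.p6, whereas the files name GRCm39. The Mms19 window shown lies at chr19:41981081-41981380 and the Ndor1 window at chr2:25255365-25255664, both on the minus strand. A further Mms19 window, at chr19:41981087-41981386, overlaps the one shown and held the same number of matches to each motif. Capitals mark matches on either strand to the GC box GGGCGG, the CCAAT box CCAAT and the E-box CACGTG.
Mms19: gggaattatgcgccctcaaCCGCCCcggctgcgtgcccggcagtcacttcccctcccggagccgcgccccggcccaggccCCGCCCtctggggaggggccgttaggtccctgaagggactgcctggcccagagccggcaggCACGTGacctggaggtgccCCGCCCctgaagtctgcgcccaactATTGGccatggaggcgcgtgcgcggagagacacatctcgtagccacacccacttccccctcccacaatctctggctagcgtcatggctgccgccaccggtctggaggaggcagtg
Ndor1: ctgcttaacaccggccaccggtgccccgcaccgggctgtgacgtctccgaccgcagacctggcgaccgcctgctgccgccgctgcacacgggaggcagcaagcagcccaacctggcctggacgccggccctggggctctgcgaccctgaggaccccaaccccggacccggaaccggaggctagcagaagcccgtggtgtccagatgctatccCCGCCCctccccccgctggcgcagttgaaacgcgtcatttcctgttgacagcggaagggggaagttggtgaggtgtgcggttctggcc

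The Mms19 window shown held 3 GC boxes, 1 E-box and 1 CCAAT box, and the Ndor1 window 1 GC box and neither of the other motifs. No 2 matches overlapped. Windows were found for 28 of the 31 genes, 34 windows in all, and Hscb, Hspa9 and Iscu had none in the table. Among the 34, 64.7% held a GC box, 52.9% a CCAAT box and 14.7% an E-box. Of all 32851 windows in the table, 35.7% held a GC box, 37.4% a CCAAT box and 7.15% an E-box. The ETS motif CCGGAAG was in 17.6% of member windows and 8.86% of all windows, and the NRF1 motif GCATGCGC in 5.88% and 2.71%. The median GC content was 61.0% for member windows and 52.7% for all windows. A match of letters is a description of the window and not of a bound site.

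The within-mouse changes of Mms19 were 0.11, 0.37, 0.36 and 0.07 in mice 1 to 4, and those of Ndor1 were 0.22, 0.34, 0.32 and 0.02. Both were smallest in mouse 4. Over 1133 tested non-coding transcripts the median change was 0.28, and 0.27, 0.30, 0.36 and 0.06 in mice 1 to 4, again smallest in mouse 4. Over 10982 protein-coding genes it was -0.01 in each mouse. The share of counts from genes encoded in the mitochondrial genome was 1.84%, 1.64%, 1.74% and 1.22% in FAC mice 1 to 4, against 1.40%, 1.58%, 1.47% and 1.35% in control mice 1 to 4. The part of these differences between libraries in the changes of Mms19 and Ndor1 was not tested.

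**Figure D4:**
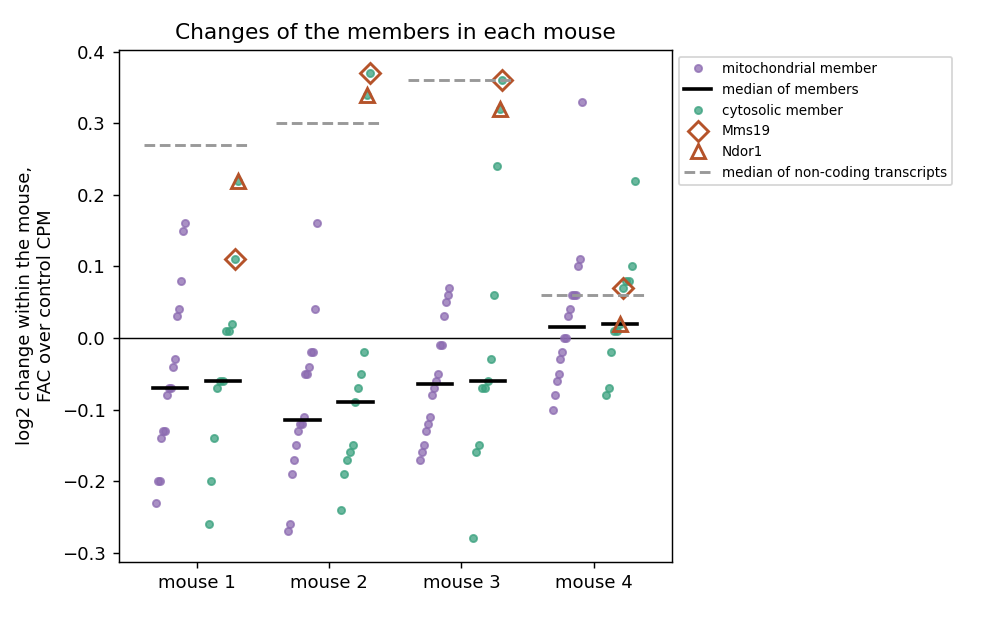
Log2 change within each mouse, FAC over control CPM, of the 16 mitochondrial and 11 cytosolic genes, with black bars for their medians, open diamonds and triangles for Mms19 and Ndor1, and dashed lines for the median of 1133 non-coding transcripts. Mms19 and Ndor1 stand above the other cytosolic genes in mice 1 to 3 and among them in mouse 4.

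Glrx3 and Bola2 form a complex that carries clusters and iron in the cytosol, and they were the 2 most abundant cytosolic transcripts of the machinery. Glrx3 averaged 206 ± 7.17 TPM with FAC and 212 ± 18.7 TPM in controls (SD, n = 4 each), a log2 change of -0.03 in counts (edgeR adjusted p = 0.770). Bola2 averaged 236 ± 18.4 TPM with FAC and 241 ± 9.05 TPM in controls. On counts its change was -0.14 (95% interval -0.25 to -0.03, edgeR adjusted p = 0.170), against -0.03 on the log2(TPM + 1) scale. Within the mice it was -0.26, -0.16, -0.16 and 0.01. Bola2 had estimated counts that were not whole in all 8 libraries, from 2021 to 3233 in a library. In the GENCODE M21 annotation of an earlier build it overlaps Coro1a and Slx1b on the opposite strand. Their mean counts were 17339 and 236. The part of reads from these genes in the level, rank and change of Bola2 was not tested.

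Of 13 partner genes, 2 rose and 0 fell, where 2.18% of all tested genes were called higher and 1.1% lower. At an unadjusted p under 0.05 there were 8 of the 13, where 18.4% of all tested genes had one, and 7 of the 13 were lower in 4 of 4 mice, as were 15.4% of all tested genes. The genes that rose were the mitochondrial iron carriers Slc25a28 (0.31, edgeR adjusted p = 0.0430) and Slc25a37 (0.24, edgeR adjusted p = 0.0482). Slc25a28 was higher in 4 of 4 mice and Slc25a37 in 3 of 4. When 1 library at a time was left out, the call of Slc25a28 held only without FAC 1 or control 4 (adjusted p up to 0.154) and that of Slc25a37 only without FAC 4 or control 4 (adjusted p up to 0.176), with log2 changes of 0.25 to 0.38 and 0.21 to 0.30. On log2(TPM + 1) the changes were 0.26 and 0.24 and did not pass (limma adjusted p = 0.233 and 0.204). Neither passed on the deposited signal (0.22 and 0.20, limma adjusted p = 0.301 and 0.215) or with effective length as an offset (0.22 and 0.21, edgeR adjusted p = 0.301 and 0.195), and Slc25a37 did not pass by limma-voom (0.24, adjusted p = 0.0504). Their within-mouse changes were 0.46, 0.37, 0.35 and 0.07 for Slc25a28 and 0.39, 0.24, 0.36 and -0.04 for Slc25a37 in mice 1 to 4, smallest in mouse 4 like the non-coding median, whose part in them was not tested. With the replicate block Chchd4, which encodes an import receptor of the intermembrane space, also fell (-0.13, edgeR adjusted p = 0.0449). The block called 2.8% of all tested genes lower. DESeq2 called Chchd4 too (adjusted p = 0.0377), and with it Dnaja3, a mitochondrial co-chaperone gene (-0.13, DESeq2 adjusted p = 0.0317). It called 2.23% of all tested genes lower.

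Of 13 genes for mitochondrial enzymes that hold such clusters, edgeR called 0, against 3.27% of all tested genes, with 3 at an unadjusted p under 0.05, against 18.4%. DESeq2 called 1 lower, against 2.23% of all tested genes, Uqcrfs1 (-0.13, DESeq2 adjusted p = 0.0409), which encodes the Rieske protein of complex III. Of 21 genes for cytosolic and nuclear enzymes with clusters, 19 could be tested and edgeR called 0, with 3 at an unadjusted p under 0.05 and 0 called by DESeq2, against the same shares of all tested genes and 5.96% by DESeq2 in either direction. With the replicate block Pole, a replicative DNA polymerase gene, rose (0.14, edgeR adjusted p = 0.0353), where the block called 4.07% of all tested genes higher. Aco1, which switches between aconitase and iron regulatory protein with its cluster, had a change of 0.10 (edgeR adjusted p = 0.265). The median changes of these lists were -0.05 for the mitochondrial enzymes and -0.01 for the cytosolic and nuclear enzymes, and -0.09 for the partner genes.

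Counts of some of these genes rest on reads shared with other genes. Of the 31 genes, 12 had estimated counts that were not whole in all 8 libraries, and 16 had whole counts in all 8. Mms19, Ndor1, Nfs1, Iscu, Fdx2 and Bola2 were among the 12. In the GENCODE M21 annotation of the earlier build, 10 of the 31 overlap another tested gene. Nfs1 overlaps Gm28036, and Fdx2 overlaps Gm38431 and Gm49373, each on the same strand. Mms19 overlaps Zdhhc16 on the opposite strand, which had a change of 0.02 (edgeR adjusted p = 0.902). Isca1 overlaps the antisense transcript Etohd2, which rose by 0.81 (edgeR adjusted p = 0.0378), whereas Isca1 itself had a change of -0.01. The library kit keeps strand, but whether counting used it was not given in the sources used here. Reads of pairs on opposite strands may thus not be told apart.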

How the data were processed

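RNA of 4 FAC and 4 control cultures was sequenced, paired by mouse number. Build GRCm39 and the tools RSEM 1.3.1, STAR 2.7.6a, DESeq2 1.26.0, DESeq, FastQC and R 3.6.3 are listed, without role or order, per the submitters' processing notes. Per the file headers, the authors deposited RSEM estimated counts per gene, not scaled between libraries, with TPM values scaled for transcript length and an effective length in bases. A further deposited table holds a normalised signal for 13751 of 57010 genes, whose scaling by the authors was not given in the sources used here.

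Estimated counts were rounded and tested with edgeR's quasi-likelihood test on the group alone (edgeR 4.0.16, R 4.3.3, TMM factors, expression filter with minimum count 10 and minimum total 15), two-sided, with Benjamini-Hochberg adjustment over all 13378 genes kept and a threshold of 0.05. The test was checked on simulated counts. CPM values are on the TMM scale. The SE is the absolute log2 change over the root of the F statistic, and 95% intervals use it with the test's degrees of freedom. Alternatives were DESeq2 1.42.0, limma 3.58.1 (voom, and on log2 of TPM or of the signal with a pseudocount of 1), RLE factors, no filter, effective length as an offset, the mouse as a replicate block and leaving out each library. Summing the Ndor1 identifiers was added after the data were seen. The pairing comes from the labels, which give both cultures of a pair 1 mouse number. Deviations from the group means correlated within mice 1 to 4 at 0.137, 0.0165, 0.0647 and 0.139 across genes. Between FAC and control cultures of different mouse numbers they correlated at -0.18 to 0.0331.

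At the library totals, 1 count equals 0.0272 to 0.0396 CPM, and no member had fewer than 210 counts in a library. Reads carry no molecular identifiers, so counting error is only part of the error. Replicates differed by more than sampling noise, with a chi-square per degree of freedom of at least 5.23. Of the 31 genes all are named. Of these, values per library are given for the genes called with or without the block, the most and least abundant gene, Nfs1 and Iscu. They are also given for others chosen after their values were seen. Called partner and client genes are given by their changes and adjusted p. Of the partner and client genes, Aco1 and called genes are named, and some others of the named set are not reported here. The members, lists and roles were chosen with earlier results of these data known. No coordinates of the files were used. Promoter sequences are from RefSeq on GRCm38.p6.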

Additional observations from a re-analysis of the deposited data

Results flagged for a closer look

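In 62 groups of 4 libraries (31 genes, FAC and control), 4 held a library far from the other 3 by Dixon's criterion, where chance flags about 1 in 20 groups. Isca2 had 25.3 CPM in FAC 4, against 23.6 to 23.9 CPM in the other FAC libraries. Cisd2 had 53.2 CPM in FAC 4, against 58.1 to 59.1 CPM in the other FAC libraries. Iba57 had 16.6 CPM in control 2, against 14.8 to 15 CPM in the other controls. Ciao2a had 54.3 CPM in control 4, against 58.6 to 59.4 CPM in the other controls. Without control 4 the change of Ciao2a was -0.16 (edgeR adjusted p = 0.196). None of these 4 genes was called in any of the 8 fits that left out 1 library, where the lowest adjusted p was 0.0573, for Ciao2a without FAC 1.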

How the results depend on the processing

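Of the 31 genes, edgeR with RLE factors and limma-voom called 1, as did the fit with the Ndor1 identifiers summed. DESeq2, the fit with no filter on low counts and the replicate block each called 2, Mms19 and Ndor1. The calls came to 0 on log2(TPM + 1), on the log2 deposited signal and with effective length as an offset, and to 0 to 2 without 1 library. The replicate block changed no call of a member other than that of Ndor1. Over all genes, 438 were called, against 919 with the replicate block, 797 with DESeq2, 736 with no filter, 187 with effective length as an offset, 156 on the deposited signal, 144 on TPM and 147 to 549 without 1 library. The share of calls that were higher was 66.4%, against 77.8% on TPM, 59.2% with the replicate block and 54.4% (without FAC 3) to 73.8% (without FAC 4) without 1 library. The median change of the mitochondrial genes ran from -0.071 to -0.02 and that of the cytosolic genes from -0.074 to -0.02 without 1 library, and neither moved by more than the spread between mice under any setting run.

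Changes near 0 took the other sign in some settings, none of them called. On log2(TPM + 1) these were Fdx1 (0.0008), Isca1 (0.02), Iba57 (0.02), Nfu1 (0.13), Nubp2 (0.01) and Cisd3 (0.01). On the deposited signal they were Nfu1 (0.09), Nubp1 (-0.002) and Ciao3 (-0.02), and with effective length as an offset Nfu1 (0.09) and Ciao3 (-0.02). Without 1 library the change ran from -0.02 to 0.03 for Nfs1, -0.03 to 0.01 for Isca1, -0.1 to 0.01 for Isca2, -0.08 to 0.03 for Iba57, -0.003 to 0.12 for Bola1 and -0.1 to 0.02 for Cisd3. The cause of these shifts was not tested.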
